A study of Mus musculus with 12 samples.

Results

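The 39 rows described here are the variable (Trbv), diversity (Trbd) and joining (Trbj) segments of the mouse T cell receptor beta chain. They were taken by name from a table of 41128 genes and comprise 23 Trbv, 2 Trbd and 14 Trbj segments. Spleens of C57BL/6J mice, 6 to 8 weeks old, gave 12 RNA sequencing libraries in 4 groups of 3. Females and males each gave a group of resting B cells, which lack CD43, and a group of naive T cells positive for CD4 and CD62L. No group carries an allele or a treatment, and the submitters describe their replicates as pools of mice, so errors and p values measure differences between pools. In each sex, library numbers run from 1 to 3 for B cells and from 4 to 6 for T cells. The naive T cells were depleted of cells carrying CD8a, CD25 or the gamma delta receptor and then sorted for low CD44. Values are adjusted TPM, a level corrected for transcript length that the authors rescaled between libraries.

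The beta chain is assembled in developing T cells of the thymus. One diversity segment is first joined to one joining segment, and a variable segment is then joined to that pair. The cuts are made by an enzyme built from the RAG1 and RAG2 proteins. The joined exon is spliced to one of 2 constant genes, Trbc1 or Trbc2, so the mature message of a T cell carries 1 variable segment. In a population of many T cells the RNA of each variable segment therefore reflects both how many cells use it and how much message each of them makes, and in bulk RNA these cannot be told apart. B cells rearrange their immunoglobulin genes instead and do not normally complete a beta chain gene.

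All members lie on chromosome 6 of GRCm38 (mm10), from 40891229 to 41558452 in the GENCODE M21 annotation. Of these, 38 are on the plus strand, and 1, Trbv31, is on the minus strand beyond the constant genes. Trbv10 and Trbj2-6 are annotated as pseudogenes. The ends of the Trbv segments are shown because they form the start of the third hypervariable loop, which contacts the peptide. Each line gives the last 45 bases of the annotated transcript, 5′ to 3′, for the 4 segments with the highest level in T cells, then for the 3 lowest above the filter, then for the pseudogene Trbv10. Capitals mark the last cysteine codon of the reading frame, and in Trbv10, which has no annotated reading frame, the codon before gccagc.
Trbv3: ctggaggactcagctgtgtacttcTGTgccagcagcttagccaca
Trbv13-2: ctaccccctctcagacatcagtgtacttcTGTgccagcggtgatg
Trbv13-3: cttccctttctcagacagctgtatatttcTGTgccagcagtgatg
Trbv5: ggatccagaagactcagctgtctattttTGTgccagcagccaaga
Trbv23: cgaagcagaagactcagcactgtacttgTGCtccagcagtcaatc
Trbv30: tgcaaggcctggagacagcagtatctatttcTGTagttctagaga
Trbv21: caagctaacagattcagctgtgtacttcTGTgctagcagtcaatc
Trbv10: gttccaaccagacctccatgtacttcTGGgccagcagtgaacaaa

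These ends lie at 41048784 to 41048828 in Trbv3, 41121788 to 41121832 in Trbv13-2, 41130541 to 41130585 in Trbv13-3 and 41062759 to 41062803 in Trbv5. They lie at 41216482 to 41216526 in Trbv23, 41281946 to 41281990 in Trbv30, 41203000 to 41203044 in Trbv21 and 41092184 to 41092228 in Trbv10. The letters TGTGCNAGC, which encode cysteine, alanine and serine, were found in the last 45 bases of 17 of 23 segments on the strand of the transcript. On either strand the count was also 17 of 23. Of 141672 annotated mouse transcripts of at least 50 bases, 0.0769% hold these letters in their last 45 bases and 0.122% hold them on either strand. The deposited table lists for Trbv21 a transcript whose annotated reading frame does not open with a start codon, and the same is true of no other Trbv with a reading frame.

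The diversity segments and 3 joining segments are shown for their short length. Capitals mark the letters TTNGG followed, after 4 further bases, by GG, which hold the phenylalanine and glycines at the base of the same loop.
Trbd1: gggacagggggc
Trbd2: gggactgggggggc
Trbj1-1: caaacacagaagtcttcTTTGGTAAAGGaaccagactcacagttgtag
Trbj2-7: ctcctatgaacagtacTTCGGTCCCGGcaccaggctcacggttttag
Trbj2-6: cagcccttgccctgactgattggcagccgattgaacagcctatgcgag

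They lie at 41533201 to 41533212, 41542163 to 41542176, 41533864 to 41533911, 41543810 to 41543856 and 41543598 to 41543645, in that order. The joining motif was found in 11 of 14 Trbj segments, and on either strand in 11 of 14. In the last 50 bases of all annotated transcripts it was found in 0.618%, and on either strand in 1.6%. The segments without it were Trbj1-6, Trbj1-7 and the pseudogene Trbj2-6.

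The sorted populations carried the markers of their labels. The B cell markers Cd79a, Cd79b, Ms4a1 and Pax5 summed to 2220.4 to 2643 in B cell libraries and to 0.896 to 4.91 in T cell libraries. The 5 T cell markers (Cd3d, Cd3e, Cd4, Lck, Tcf7) summed to 1017 to 1194 in T cells and to 9.76 to 14.1 in B cells, where the kinase gene Lck alone gave 8.94 to 13.4 and Cd4 stayed at or below 0.00594. Some markers of other cells were present. Cd8b1 was at 5.25 to 8.11 and Cd8a at or below 0.256 in T cells, which had been depleted of cells carrying CD8a. In B cells Lyz2, a monocyte and macrophage marker, was at 6.82 to 11.1. Erythroid markers summed to 0.611 to 196 in B cells and to 2.04 to 43.1 in T cells. The T cell libraries numbered 6, of both sexes, stood apart. Ikzf2, a transcription factor gene of regulatory T cells, was at 13.4 in female T cell 6 and 11.3 in male T cell 6, and between 1.07 and 2.07 in the other T cell libraries. Il2ra, which encodes CD25, was at 5.0 and 4.11 in these 2 libraries and at 0.158 to 0.34 in the others, although cells carrying CD25 had been depleted. Sums, calls and the spread of the segments are also given without them, and without them the means of the 22 tested segments in T cells were 1.02 to 1.12 times those given here, with the same 10 segments at the top.

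The variable segments were present in T cells and near the bottom of the scale in B cells. The sum of the 23 Trbv levels was 784, 759 and 584 in female T cells 4, 5 and 6, and 779.5, 752 and 653 in male T cells 4, 5 and 6. In B cells the sum was between 0.653 and 1.07. The mean was 718 ± 81.5 (SD, n = 6) in T cells and 0.854 ± 0.169 (SD, n = 6) in B cells, and no T cell library overlapped with a B cell library. The log2 ratio of these means was 9.72, and 9.81 without the T cell libraries numbered 6. It was 9.37 when every library was rescaled to the same total. No test was run on the sum.

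A row was tested if 3 or more libraries had an adjusted TPM of 1 or more, and this filter was passed by 22 of the 39 members, all of them Trbv. The other 17, namely Trbv10 and all 16 Trbd and Trbj rows, were below 1 in all 12 libraries. Each of the 22 tested segments passed through its T cell values, so a difference between the cell types was built into the choice, and neither their count nor a p value of a segment supports anything by itself. With limma and Benjamini-Hochberg adjustment over 12520 genes, 22 of 22 were higher in T cells. Of all tested genes 73.0% were called and 41.6% were called as higher in T cells. Every T cell library was above every B cell library for 22 of 22 segments, against 29.7% of all tested genes. The counts of 22 were the same without the T cell libraries numbered 6. The share of all calls that were higher in B cells was 43.0% and rose to 71.6% with every library rescaled to the same total, where the 22 segments were again all higher in T cells.

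Trbv3 had the highest level of all segments in each of the 6 T cell libraries. It was at 93.6, 100.5 and 67.2 in female T cells 4 to 6, and at 98.3, 98.2 and 72.1 in male T cells 4 to 6. In B cells it was at 0.0559, 0.0339 and 0.0237 in females and at 0.0377, 0.0227 and 0.0255 in males. The libraries numbered 6 were the lowest of each sex in T cells, and the 2 cell types were far apart. The difference of log2(adjusted TPM + 1), B cells minus T cells, was -6.42 (SE 0.103), the largest among the members.

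Trbv13-2 and Trbv13-3, 2 members of a recently duplicated subfamily, followed. Trbv13-2 was at 60.7, 69.1 and 47.6 in female and 61.4, 60.003 and 61.5 in male T cells, and at 0.0191 to 0.0364 in B cells. Trbv13-3 was at 58.2, 54.3 and 41.0 in female and 61.6, 59.98 and 50.9 in male T cells, and at 0.0212 to 0.0351 in B cells. Their differences from B cells were -5.88 (SE 0.0773) and -5.74 (SE 0.0835) on the log2 scale. The transcripts of the pair are identical at 90.6% of 340 aligned bases, with a longest shared run of 50 bases. Trbv13-1, at 32.4 ± 6.82 (SD, n = 6) in T cells, is identical to Trbv13-2 at 88.0% and to Trbv13-3 at 85.9% of 334 bases. Trbv12-1 and Trbv12-2 are identical at 88.3% of 385 bases and stood at 11.8 ± 1.71 and 16.8 ± 2.34 (SD, n = 6). These 4 pairs were the only ones of 253 above 80% identity, and the median was 48.8%. How reads shared by such pairs were divided is not given in the sources used here, so the split within them is uncertain.

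**Figure D1:**
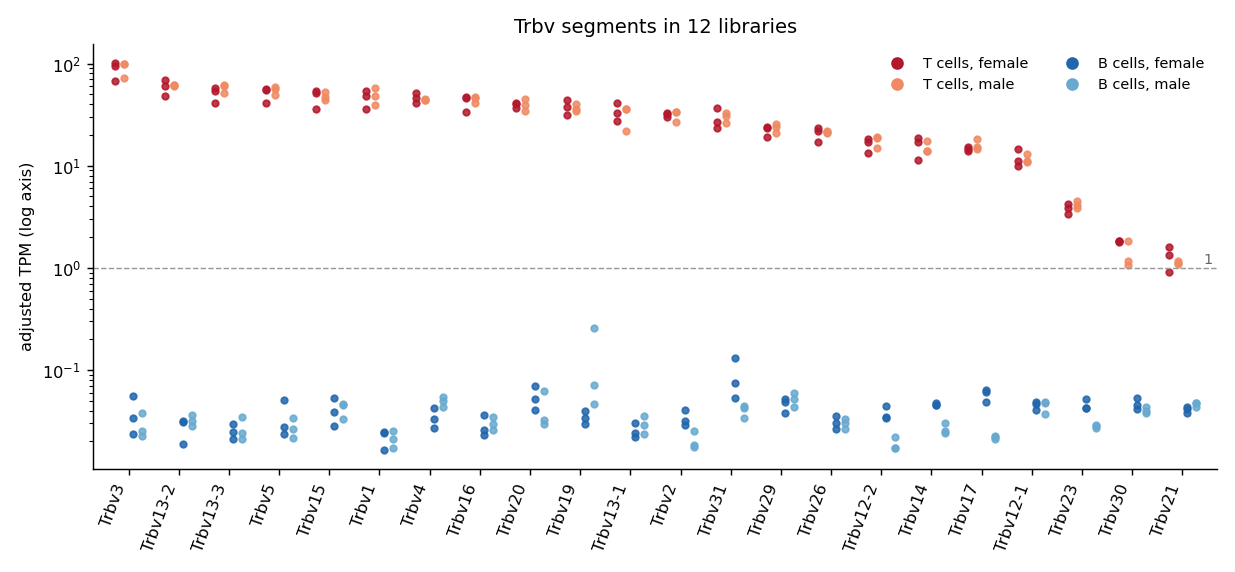
Adjusted TPM (log axis) of the 22 Trbv segments above the filter, ordered by their mean in T cells, with 1 point per library. T cell values run from 0.913 to 100.5 and B cell values from 0.0166 to 0.257, and the dashed line marks 1.

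The next 7 segments formed a shallow slope. Trbv5 was at 53.0 ± 6.72, Trbv15 at 47.3 ± 6.81, Trbv1 at 47.0 ± 8.03 and Trbv4 at 45.3 ± 3.51 in T cells (SD, n = 6). Trbv16 was at 43.5 ± 5.18, Trbv20 at 39.3 ± 3.66 and Trbv19 at 37.2 ± 4.39 (SD, n = 6). Their neighbours in this order overlapped: of the 9 neighbouring pairs within the 10 highest segments, only Trbv3 over Trbv13-2 and Trbv5 over Trbv15 kept their order in all 6 libraries. Over the whole list 9 of 22 neighbouring pairs kept their order in every T cell library. Rank order between any 2 T cell libraries was close all the same, with Spearman coefficients across the 23 segments between 0.972 and 0.996 in 15 pairs, which describe segments of the same libraries and are no test.

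As shares of the Trbv sum, Trbv3 took 12.2% ± 0.875, Trbv13-2 8.38% ± 0.703, Trbv13-3 7.55% ± 0.406, Trbv5 7.37% ± 0.296 and Trbv15 6.57% ± 0.36 (SD, n = 6 T cell libraries). These 5 segments together took 42.1% ± 1.51, and 42.6% without the libraries numbered 6. The 10 highest took 71.7% ± 0.823 (SD, n = 6). The 3 lowest above the filter, Trbv23, Trbv30 and Trbv21, took 0.947% together.

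A gap separated those 3 from the others. Of the 23 segments, 19 had a mean of at least 11.8, and the next was Trbv23 at 4.21, 3.87 and 3.38 in female and 4.48, 3.85 and 4.11 in male T cells. Trbv30 was at 1.84, 1.85 and 1.77 in females and 1.82, 1.16 and 1.07 in males. Trbv21 was at 1.35, 1.61 and 0.913 in females and 1.11, 1.1 and 1.16 in males, so 1 of its 6 values was under 1. The mean of Trbv3 was 73.2 times that of Trbv21. The differences from B cells were -2.26 (SE 0.0619) for Trbv23, -1.30 (SE 0.077) for Trbv30 and -1.07 (SE 0.0744) for Trbv21, the smallest of the 22. The pseudocount of 1 lies above every B cell value of the 22 segments, so it understates the change of all of them, high and low. With a pseudocount of 0.1 the difference of Trbv3 was -9.36.

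In B cells, the 22 segments gave 132 values, of which 2 reached 0.1. Trbv19 was at 0.257 in male B cell 1 and at 0.0299 to 0.0714 in the other 5 B cell libraries. Trbv31 was at 0.132 in female B cell 1 and at 0.0337 to 0.0746 in the others. The deposited lower and upper bounds of these B cell values were wide, with a median ratio of upper to lower bound of 899, against 1.27 for the same segments in T cells. No B cell upper bound exceeded 0.738. For 22 of 22 segments the lowest T cell lower bound was above the highest B cell upper bound. The ratio of these bounds was 189 for Trbv13-2, 150.4 for Trbv3 and 1.83 for Trbv30, the least separated. The segments had passed the filter through their T cell values, and the share of all tested genes with bounds so separated was not computed. The count is therefore a description and supports nothing by itself. The level of the bounds is not given in the sources used here.

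Levels differed between neighbours along the locus. On the plus strand, the levels of the 21 tested segments in T cells and their start positions had a Spearman coefficient of -0.53, a description of segments that share the same 6 libraries. Both high and low segments occurred side by side. Trbv12-1 at 11.8 is the upstream neighbour of Trbv13-1 at 32.4, and Trbv21, Trbv23 and Trbv30 lie near Trbv20, Trbv26 and Trbv29, at 39.3, 21.1 and 22.9. Trbv1, the segment farthest from the diversity segments at -642 kb from Trbd1, was at 47.0. Trbv31, which lies 24.5 kb beyond Trbd1 and must be joined by inversion, was at 36.4, 26.9 and 23.3 in female and 32.7, 26.1 and 30.5 in male T cells. The coefficient of level with transcript length, across 22 segments, was 0.31.

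**Figure D2:**
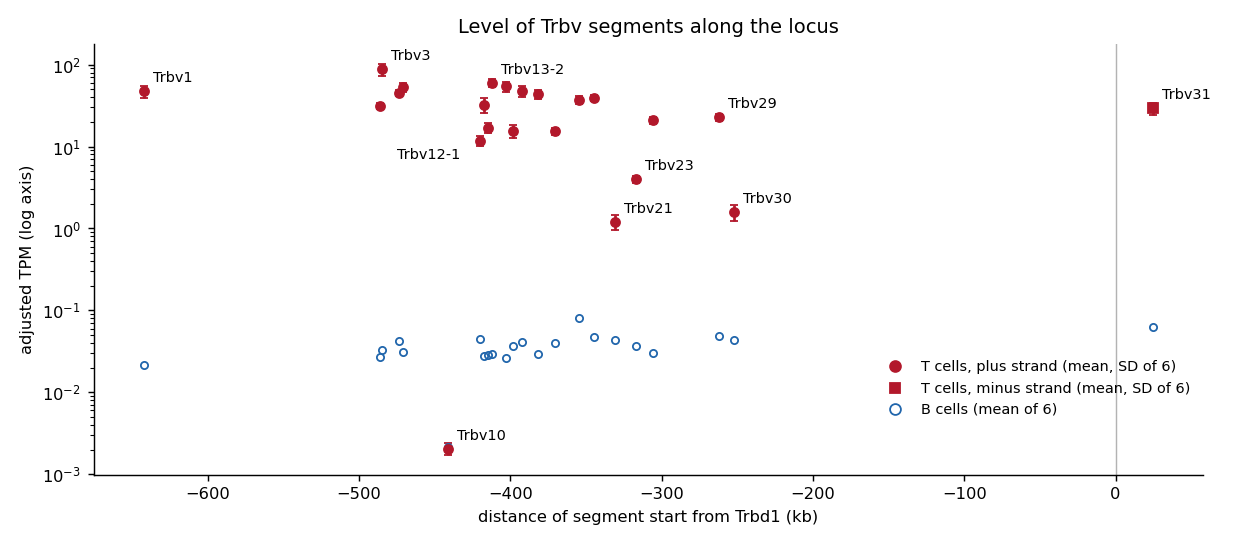
Mean adjusted TPM (log axis) of the 23 Trbv segments against the distance of their start from Trbd1 in kb. Red symbols are T cell means with the SD of 6 libraries, open circles are B cell means, and Trbv21, Trbv23 and Trbv30 are the lowest T cell means after Trbv10 while Trbv31 lies on the other side of Trbd1.

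The variable segments were set against the constant genes in each T cell library. Trbc1 was at 295 ± 49.1 and Trbc2 at 705 ± 106.6 in T cells (SD, n = 6), and at or below 0.158 and 0.145 in B cells. The Trbv sum divided by the sum of both constant genes was between 0.671 and 0.77 in the 6 T cell libraries, and over the same range without the libraries numbered 6. Over all 6 the coefficient of variation was 5.77% for this ratio and 11.3% for the Trbv sum. Without the libraries numbered 6 the Trbv sum was 769 ± 15.5 (SD, n = 4), so among those 4 the ratio varied more than the sum. Female T cell 6 had a Trbv sum at 75.7% of the mean of female T cells 4 and 5, and male T cell 6 at 85.3% of the mean of its counterparts. For the constant genes these values were 72.1% and 80.3%. In female T cell 6, 22 of 22 segments were the lowest of their group, and in male T cell 6, 16 of 22, against 46.6% and 34.8% of all tested genes. The Trbv sum over the constant gene sum was at 104% and 106% in these libraries.

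Other genes of the receptor were lower there too, except Cd3e in male T cell 6. Trac, the alpha chain constant gene, was at 71.2% in female and 82.2% in male T cell 6 of the mean of libraries 4 and 5. Cd3g was at 72.3% and 86.5%, Cd3d at 78.7% and 95.4%, and Cd3e at 92.7% and 116%. Cd247, of the same receptor, was at 199 and 216 in the libraries numbered 6 and at 226 to 275 in the other 4. Cd4, which is not a receptor chain gene, was at 90.5% and 93.1%. The 3 regulatory T cell markers summed to 20.97 in female T cell 6 and reached at least 1.75 in every T cell library, with Foxp3 at 2.57 and 1.82 in the libraries numbered 6 and at 0.44 to 0.735 in the other 4. The B cell markers summed to 4.91 and 2.43 in the libraries numbered 6, and to at most 1.82 in the other 4. Of the monocyte and macrophage markers, Lyz2 was at 2.52 and 1.22 in these libraries and at 0.0335 to 0.873 in the others, and Csf1r at 0.964 and 0.296 against 0.0487 to 0.163. Cd68, of the same list, did not follow, at 1.07 and 0.723 against 0.495 to 1.21. The summed markers of erythroid cells and neutrophils were highest in male T cell 5, at 43.1 and 2.57. The part of these cells or of any other difference between pools in the lower Trbv values was not tested. As shares of the Trbv sum the segments varied less than as levels: the median coefficient of variation over T cells was 8.35% for shares and 13.3% for levels, and it was lower for shares in 18 of 22 segments. Without the libraries numbered 6 these medians were 6.76% and 7.04%, and the value was lower for shares in 14 of 22 segments, so most of the gap rests on these libraries. Division by the Trbv sum of a library takes out any shift common to its segments, so a lower spread of shares was partly built in.

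**Figure D3:**
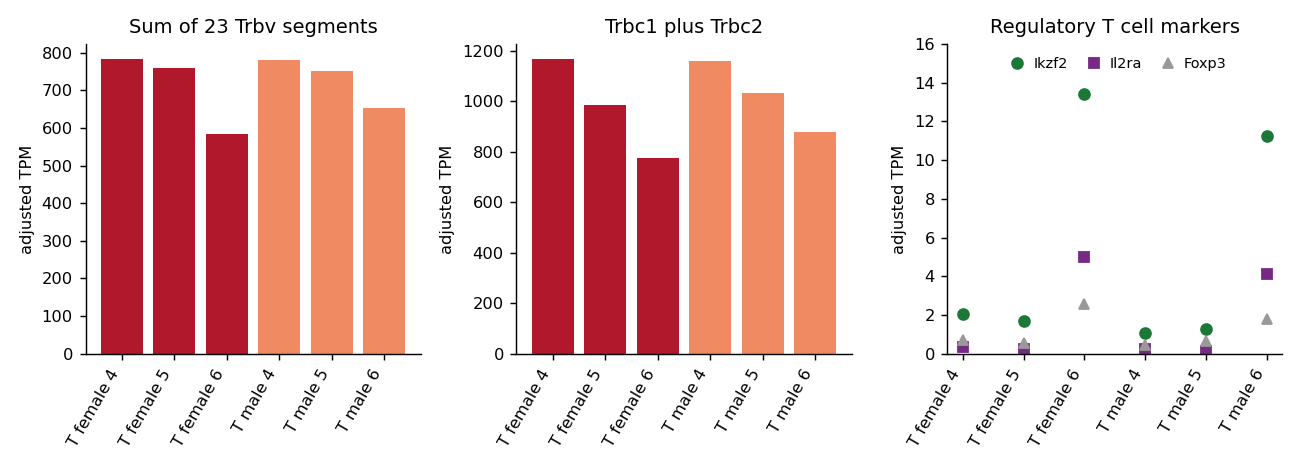
Sum of the 23 Trbv segments, sum of Trbc1 and Trbc2, and levels of Ikzf2, Il2ra and Foxp3 in the 6 T cell libraries, all in adjusted TPM on linear axes from 0. The libraries numbered 6 have the lowest Trbv sums (584 and 653) and constant gene sums (777 and 879.9), and the highest levels of the 3 markers.

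The sexes were compared within each cell type. The labels carry a further digit whose meaning is not given in the sources used here. Female B cells share its value with male T cells, and male B cells share the other value with female T cells. Sex within a cell type, and the difference between the sex effects, therefore cannot be told apart from this digit. In T cells 0 of 22 segments passed the limma threshold, with 1 at an unadjusted p under 0.05, where 0.104% of all tested genes were called. In B cells the counts were 0 and 0, against 0.144% of all genes. For the difference between the sex effects of the 2 cell types they were 0 and 0, against 0% of all genes. The differences, female minus male, ran from -0.18 to 0.28 on the log2 scale in T cells with SEs of 0.084 to 0.175. Even the largest, 0.28 for Trbv30 with an SE of 0.109, was not called, so differences well above their errors could be missed. Without the libraries numbered 6 the differences ran from -0.13 to 0.23 and 0 of 22 were called. In B cells they ran from -0.12 to 0.06.

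The smallest p within T cells belonged to Trbv30, where the limma difference was 0.28 (SE 0.109, adjusted p = 1.0), with the higher mean in females. Its values, given above, overlap, with male T cell 4 inside the range of the females. Next came Trbv13-3 at -0.18 (SE 0.118, adjusted p = 1.0) and Trbv17 at -0.10 (SE 0.0911, adjusted p = 1.0) in the limma fit, both with the higher mean in males. Leaving out each of the 12 libraries in turn moved Trbv30 between 0.19 and 0.42, Trbv13-3 between -0.27 and -0.03 and Trbv17 between -0.17 and -0.01. Trbv17 was at 15.4, 14.7 and 13.9 in female and 18.2, 15.1 and 14.4 in male T cells. These were also the 3 segments with the smallest p for the difference between the sex effects, at -0.27 (SE 0.154) for Trbv30, 0.15 (SE 0.129) for Trbv17 and 0.17 (SE 0.167) for Trbv13-3. In B cells the smallest p values belonged to Trbv19, Trbv17 and Trbv31, at -0.12, 0.05 and 0.06, all at levels near the floor. The value of Trbv19 ran from -0.17 to -0.03 without each library and rests on the 0.257 of male B cell 1.

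As levels, 0 of 22 segments separated the sexes of T cells without overlap, against 8.49% of all tested genes. Taking the libraries in the 3 pairs of the same number, Trbv5, Trbv12-2, Trbv13-3 and Trbv17 were lower in the female library of every pair and Trbv30 was higher. These are 5 of 22 segments, against 28.0% of all tested genes with 1 direction in every pair, and the fit with the pairs as a block called 0 members. As shares of the Trbv sum, 2 of 22 segments separated the sexes without overlap, and 5.30% of all tested genes lay apart when their levels were divided by the same sum. Trbv30 took 0.235% to 0.304% in females and 0.155% to 0.234% in males, and Trbv13-3 took 7.02% to 7.43% in females and 7.8% to 7.98% in males. These 2 shares were picked for lying apart. An exact permutation test gave p = 0.1 for each, the smallest value that 3 against 3 libraries can give, so it decides nothing.

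**Figure D4:**
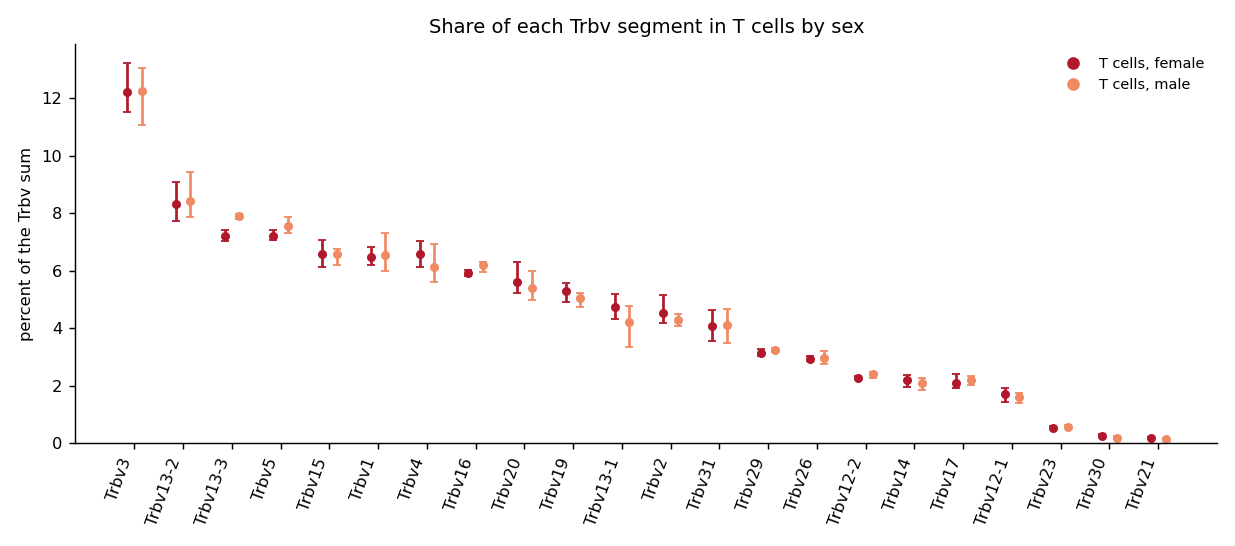
Share of each tested Trbv segment in the Trbv sum of T cells, in percent, by sex. Points are means of 3 libraries and bars run from the lowest to the highest library, and the bars of the sexes overlap except for Trbv30 and Trbv13-3.

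The diversity and joining rows stayed at the bottom of the scale in T cells as well as in B cells. Their values ran from 0.000521 to 0.139 over all 12 libraries. Trbd1 was at 0.00532 ± 0.00126 in T cells and 0.00566 ± 0.00094 in B cells (SD, n = 6), and Trbd2 at 0.0214 ± 0.00516 and 0.0182 ± 0.00501 (SD, n = 6). The highest row was the pseudogene Trbj2-6, at 0.114 ± 0.0212 in T cells and 0.0818 ± 0.00854 in B cells (SD, n = 6). Trbj1-1 followed at 0.0533 ± 0.00991 in T cells and 0.07 ± 0.0156 in B cells (SD, n = 6), so the order of the cell types differed between these rows. Trbj2-6 was the member with the highest mean in B cells, ahead of Trbv19 and Trbj1-1. The pseudogene Trbv10 was at 0.00166 to 0.00255 in the 12 libraries.

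These rows are short. The Trbd transcripts hold 12 and 14 bases and the Trbj transcripts 45 to 54, against 289 to 566 for the Trbv. The whole table has 182 rows with an annotated transcript under 60 bases, which include the 16 Trbd and Trbj rows themselves. Of the 182, 0 reached an adjusted TPM of 1 in any library, whereas 32.3% of 40320 longer rows did. Of 95 diversity and joining rows of other antigen receptor loci, with lengths up to 72 bases and in part among the 182, 0 reached 1 in any library. Whether length accounts for the low values was not tested. The Trbj1 rows summed to 42.3% ± 6.39 of the Trbj sum in T cells and to 46.6% ± 0.643 in B cells (SD, n = 6), which at these levels measures no use of the joining clusters.

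**Figure D5:**
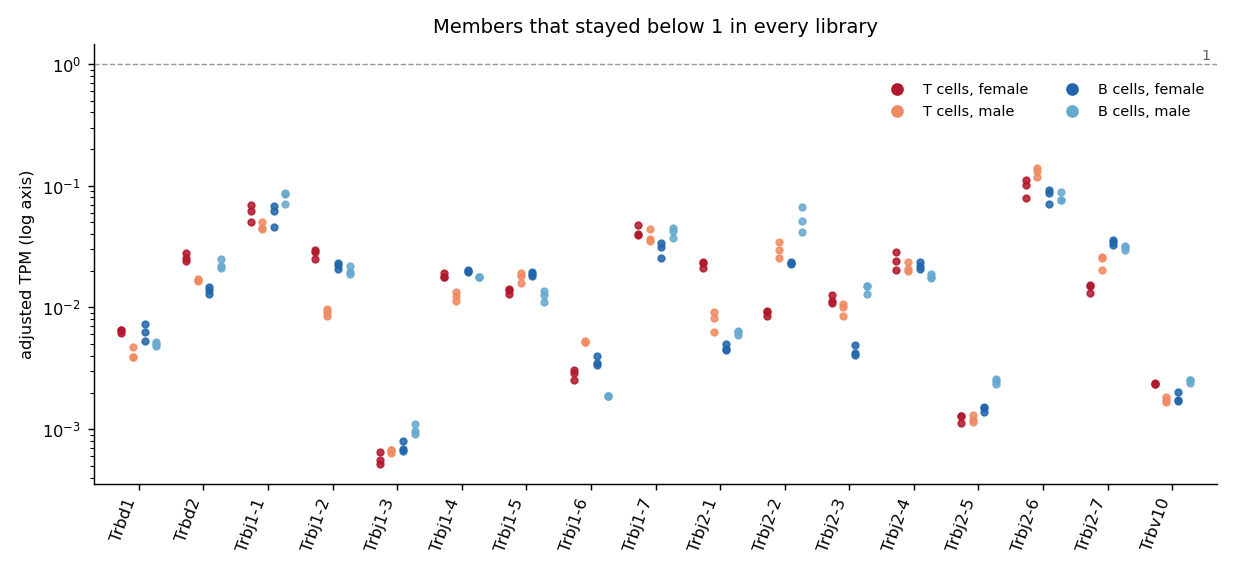
Adjusted TPM (log axis) of the 16 Trbd and Trbj rows and Trbv10, with 1 point per library and the dashed line at 1. All values lie between 0.000521 and 0.139, and libraries of a group lie closer together than the groups do in most rows.

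Within these 17 rows the libraries of a group were closer to each other than the groups were. The median over rows of the widest ratio of highest to lowest library within a group was 1.27, and the median ratio of the highest to the lowest group mean was 1.76. The latter was larger than the former in 16 of 17 rows. The share of other genes below 1 in every library with this pattern was not computed, so the count is a description and marks no trait of these rows. In 7 of these 17 rows, and of the 39 members, the sexes lay apart in both cell types in opposite directions, a pattern seen in 13.5% of all genes and in 19.6% of the genes below 1 in every library. The further digit of the labels divides the libraries in the same way, so opposite sex differences cannot be told apart from it. The deposited bounds were wide, with a median ratio of upper to lower bound of 1030, and for 17 of 17 rows a single value lies inside all 12 intervals. Without the filter on low values, limma called 33 of 39 members between B and T cells, against 59.8% of all 41128 genes, with 26 higher in T cells and 7 in B cells. All 7, and 4 of the 26, were Trbd or Trbj rows below 1 in every library, where no difference exceeded 0.05. It then called 11 of 39 between the sexes in T cells (25.8% of all genes), 11 of 39 in B cells (26.7%) and 12 of 39 for the difference between sex effects (27.2%). The members called in these sex contrasts were Trbd and Trbj rows and Trbv10. None of their differences exceeded 0.05 on the log2 scale, and shares of 37.2% in T cells and 38.5% in B cells were called among the 28032 genes below 1 in every library.

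The other genes of the pathway were read from lists of known members. The receptor complex (Trbc1, Trbc2, Trac, Cd3d, Cd3e, Cd3g, Cd247) had a median difference of -8.05, B minus T, against -0.09 over all tested genes. All 7 genes were called higher in T cells by limma, as were 41.6% of all tested genes, but they were at or below 0.747 in every B cell library and so passed the filter only through T cells. Of the 11 genes of recombination and the pre-receptor, 8 were tested, 3 were higher in T cells, 1 was higher in B cells and 4 were not called. Over all tested genes 73.0% were called and 41.6% were called higher in T cells. The median difference of this list was -0.09, as over all tested genes, so the counts mark no trait of the list. Dntt, the polymerase that adds bases at the joins, was at 6.99 ± 0.511 in T cells and at 0.00585 ± 0.00422 in B cells (SD, n = 6), a difference of -2.99 (SE 0.0585), and it too passed the filter only through T cells. Xrcc4 and Xrcc5, which act in the joining of DNA ends, were higher in T cells, with limma differences of -0.99 and -0.26 (B minus T). Dclre1c, which encodes the nuclease Artemis, was higher in B cells, with a difference of 0.77.

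The genes that start rearrangement were low in both cell types. Rag1 was at 0.821 to 1.7 in B cells and at or below 0.0126 in T cells, and it did not pass the filter. Rag2 was at or below 0.0457 in every library, and Ptcra, the alpha chain of the pre-receptor, at or below 0.0895. Of 24 gamma and delta chain rows, 2 passed the filter, both only through T cells, namely Trdv1 at 1.61 ± 0.228 and Trdv2-2 at 2.62 ± 1.12 in T cells (SD, n = 6). The other 22 were below 1 in every library, and the sum of all 24 was 4.42 to 6.71 in T cells.

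Genes that lie between the segments but are not segments were nearly all low. Of 18 such rows, 16 stayed below 1 in every library, among them the trypsinogen genes Prss2, at or below 0.366, and Try4, at or below 0.494. The other two were Trbc1 and Trbc2, described above.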

How the data were processed

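Gene expression was measured by RNA sequencing of RNA depleted of ribosomal RNA, in 12 libraries whose groups were taken from the labels. Per the labels, the submitters' processing notes name Trim Galore, FastQC, STAR and build mm10. The authors deposited a signal called adjusted TPM with a lower and an upper bound for each library. The quantification tool, the rescaling and the level of the bounds are not given in the sources used here. The values are not counts, so sequencing depth is unknown and precision was read from the deposited bounds. Some labels name the material genomic DNA, while the series describes RNA. ERCC spike-ins were not analysed here, and a single gene of the B cell marker list is left out.

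A gene entered the tests if 3 or more libraries held an adjusted TPM of 1 or more (12520 of 41128). The log2(adjusted TPM + 1) values of all 12 libraries were fitted by group means in limma 3.58.1 (R 4.3.3), with a mean-variance trend, and p values were adjusted after Benjamini and Hochberg with a threshold of 0.05. Members, gene lists and tests were chosen with earlier results of these data known. Segments named singly are the 10 Trbv with the highest mean in T cells, the Trbd and Trbj rows, the 3 members highest in B cells, the 3 largest and 3 smallest differences between cell types, and the 3 smallest p values of each sex contrast. Other members (Trbv10, Trbv12-1, Trbv12-2, Trbv13-1, Trbv26, Trbv29) are named after their values were seen. Rows were matched to GENCODE M21, which is of build GRCm38, 38 members by gene and Trbv4 by transcript. Sequences are from its transcripts, aligned with Biopython 1.88. Promoters were not used here. Alternatives were a pseudocount of 0.1, no filter, rescaling to the same total, median-ratio scaling, leaving out each library, and a replicate block. Deviations of the same-numbered female and male T cell libraries correlated at 0.721, 0.548 and 0.521 across genes, so the numbers were taken to pair the T cell libraries. The fits were tested on simulated data.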

Additional observations from a re-analysis of the deposited data

Results flagged for a closer look

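For 7 members the female and the male libraries lay apart without overlap in both cell types, but in opposite directions. This pattern was found in 13.5% of all 41128 genes and in 19.6% of the 28032 genes below 1 in every library. All 7 are rows below 1 in every library, and the difference was not tested for them in the main comparison, which they did not enter. For Trbd2 the ratio of the female to the male mean was 1.54 (T cells) and 0.611 (B cells). It was 0.77 and 1.51 for Trbj1-5, 0.538 and 1.94 for Trbj1-6, and 2.87 and 0.753 for Trbj2-1. It was 1.18 and 0.308 for Trbj2-3, 0.604 and 1.11 for Trbj2-7, and 1.36 and 0.728 for Trbv10, in T and B cells in that order. The deposited intervals of all 12 libraries share a value in each of these rows. The further digit of the labels has the same value in female B and male T cells, and the other in male B and female T cells. Opposite sex differences cannot be told apart from it.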

How the results depend on the processing

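The 22 Trbv segments called between B and T cells numbered 22 under every alternative that was run with the filter (a pseudocount of 0.1, rescaling to the same total, median-ratio scaling, and leaving out each of the 12 libraries, range 22 to 22). Without the filter 33 members were called, 26 higher in T cells and 7 in B cells. The counts of members called in the sex contrasts stayed at 0 under the same alternatives (range 0 to 0 without each library), and without the filter they were 11 (T cells), 11 (B cells) and 12 (difference between the sex effects). The log2 ratio of the Trbv sums moved from 9.72 to 9.37 with every library rescaled to the same total, and ranged from 9.65 to 9.79 without each library. That rescaling moved the median difference of all genes between B and T cells from -0.09 to 0.26, and it gives male T cell 6, with the highest total, a Trbv sum of 449. It turned the sign of the sex difference in T cells to 0.11 for Trbv13-3 and 0.17 for Trbv17, and of the difference between sex effects to -0.12 for Trbv13-3 and -0.11 for Trbv17, none of which was called. The 5 highest Trbv took 41.7% to 42.5% and the Trbj1 share was 40.5% to 43.5% without each T cell library. Of the 17 pathway list genes tested, 13 were called, 12 of them higher in T cells, and 13 to 14 were called without each library. The calls depended on the scaling. With median-ratio scaling 15 of 17 were called, 12 of them higher in T cells. With rescaling to the same total 15 of 18 were called, 11 of them higher in T cells. Without the filter 39 of 58 were called. The alternative without both T cell libraries numbered 6 was chosen after seeing the data.

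With a replicate block, the paired fit within T cells called 0 members, and the fit within B cells called 0, as without the block. Same-numbered B cell libraries did not deviate together (correlations of -0.17, -0.04 and -0.34), so their numbers were not taken to pair them. What the numbers mark is not given in the sources used here. B and T cell libraries share no replicate number. Rows with values near 0.01 have bounds too wide to show a difference between groups.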
